A study of Sus scrofa with 6 samples.

Results

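Iron storage and transport genes were read in pig renal cortex as the array probes whose gene name was FTH1 (written FTH in the array design), FTL, TFRC, TF, HAMP, CP, HP or HPX. The rule found 25 probes of 7 genes among 43603 probes on the array; no probe carried the name FTL. The ischemia group held 3 kidneys of Large White pigs aged 3 months, which were clamped and kept clamped for 60 min at 37 °C, then rinsed with the organ preservation fluid University of Wisconsin solution and held at 4 °C for 24 h before sampling. The control group held 3 kidneys from other Large White pigs of the same age, sampled and frozen at removal. Each kidney gave 1 array of total cortical RNA in 1 colour. Warm ischemia, flush and cold storage came as 1 sequence and cannot be told apart here, and no kidney was reperfused.

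Iron is kept inside cells in ferritin, a shell of heavy and light chains, and moves between cells on transferrin, which the transferrin receptor takes up. Cells tune ferritin and the receptor in opposite directions: when iron is scarce, iron regulatory proteins bind the messenger RNAs, hold back translation of ferritin and stabilise the receptor's RNA. Ceruloplasmin oxidises iron so that transferrin can take it, hepcidin closes the iron exporter ferroportin, and haptoglobin and hemopexin bind free hemoglobin and free heme in plasma. The liver is the main source of transferrin, hepcidin, ceruloplasmin, haptoglobin and hemopexin, and in the kidney the tubule takes up filtered iron and heme proteins.

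Values are log2 processed signal minus the 75th percentile of the array, so that 0 stands for a probe at that percentile; levels of different probes are not set against each other. Of the 25 probes, 21 entered the test, and all 21 were well above background on all 6 arrays. In limma none of the 21 reached a Benjamini-Hochberg adjusted p under 0.05, with a smallest adjusted p of 0.740, beside 1 of 25017 probes on the whole array (0.004%). At an unadjusted limma p under 0.05, 5 member probes were higher in ischemia kidneys (3 of CP, 1 of HP and 1 of HPX), against 2.99% of all probes tested, and 0 were lower, against 3.3%. All 3 ischemia values lay above all 3 control values in 2 member probes, against 5.93% of all probes, and below them in 1, against 5.02%. The member differences, ischemia minus control, had a median of -0.13 with 9 above 0 and 12 below, and the median over all probes tested was -0.04. Probes of a gene share a transcript, so the 21 are not 21 separate readings. In cortex as a whole, fewer cells of a type and less RNA per cell cannot be told apart.

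**Figure D1:**
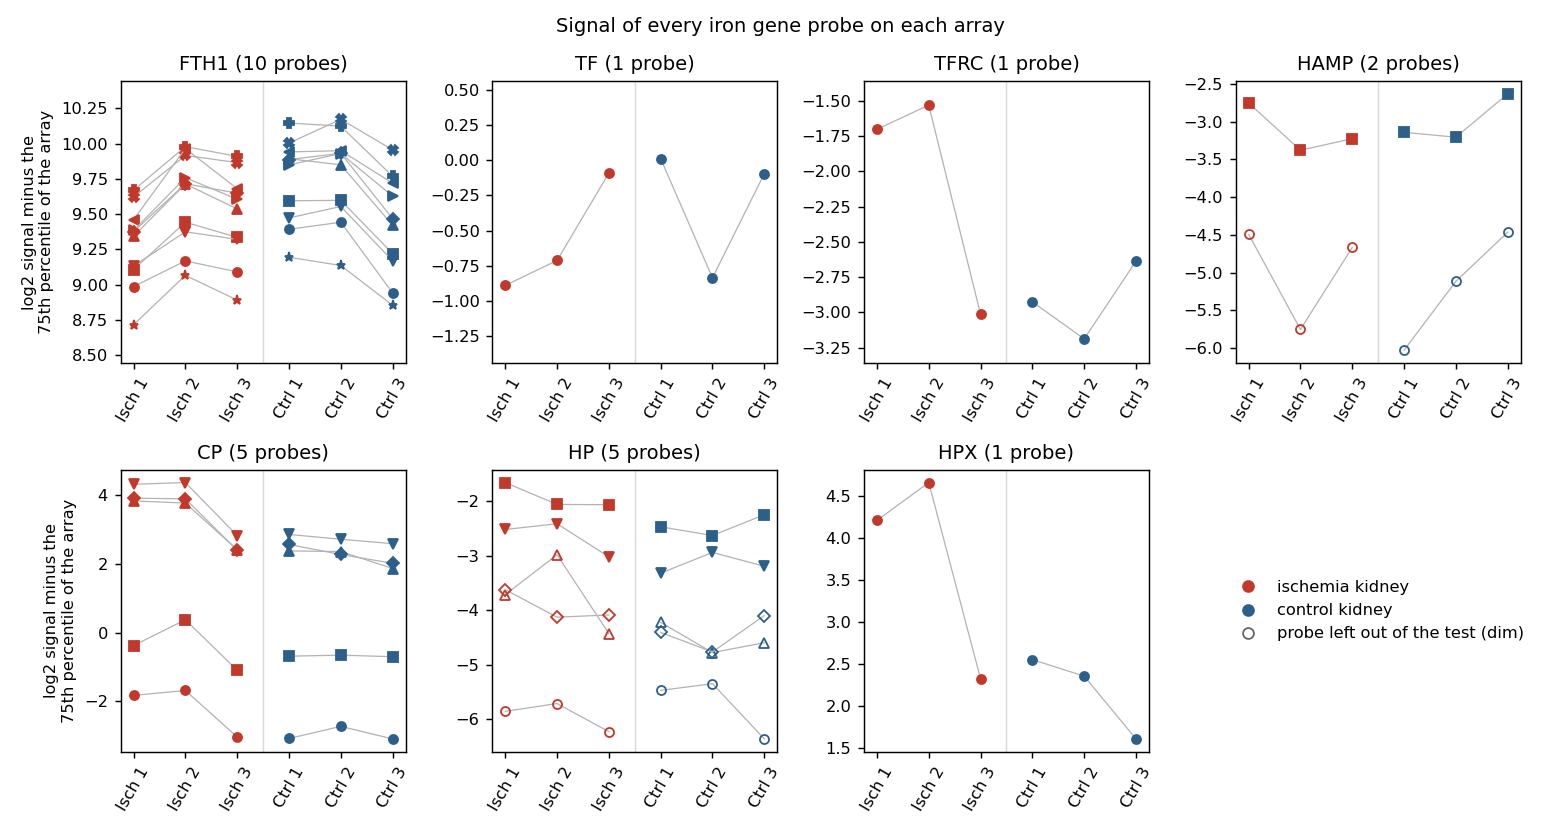
Log2 signal minus the array's 75th percentile for all 25 probes, 1 panel per gene with its own vertical range, on ischemia arrays 1 to 3 (red, left) and control arrays 1 to 3 (blue, right). Each marker shape is 1 probe, thin lines join the values of a probe within a group, and open symbols mark the 4 probes left out of the test as too dim. The CP, HPX and TFRC panels show ischemia 1 and 2 high and ischemia 3 near the control arrays, while the 10 FTH1 probes run nearly parallel.

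FTH1 encodes the ferritin heavy chain, the subunit that oxidises iron as it enters the shell. Its 10 probes, all laid out along transcript NM_213975 from base 174 to base 756 by their first base, had differences of -0.24 to -0.12, each smaller than 1.5 times its standard error (0.19 to 0.22). The limma adjusted p was 0.920 to 0.954. The probe with the highest mean signal, A_72_P755261, read 9.67, 9.98 and 9.91 in ischemia kidneys, against 10.15, 10.12 and 9.77 in control kidneys. Ischemia 1 was lowest and the groups overlapped. A_72_P733169 was the only FTH1 probe whose groups did not overlap, with 9.62, 9.92 and 9.87 in ischemia kidneys and 10.00, 10.17 and 9.96 in control kidneys. Its log2 difference was -0.24 ± 0.19 (SE, 3 kidneys per group), with a 95% confidence interval of -0.69 to 0.21. All 10 differences turned positive under quantile normalization, at 0.0028 to 0.112, so no direction is given for FTH1. A_72_P738757 also turned positive, at 0.029, when arrays were centred on their medians.

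A pair of overlapping FTH1 probes shows how closely separate spots of this transcript read. The capitals mark the longest unbroken run that both hold, 26 bases, and shorter shared runs stay in lower case; both read 5′ to 3′, as deposited in the array files.
A_72_P729674: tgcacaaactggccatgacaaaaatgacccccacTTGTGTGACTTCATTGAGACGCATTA
A_72_P789226: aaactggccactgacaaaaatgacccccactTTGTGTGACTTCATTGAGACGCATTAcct
A_72_P729674 read 9.11, 9.44 and 9.34 in ischemia kidneys and 9.60, 9.60 and 9.22 in control kidneys. A_72_P789226 read 9.34, 9.71 and 9.54 in ischemia kidneys and 9.89, 9.85 and 9.42 in control kidneys. The order of the arrays was nearly the same, and the differences were -0.18 ± 0.21 and -0.19 ± 0.22. Over all 45 pairs of FTH1 probes the Pearson correlation across the 6 arrays was 0.735 to 0.997, a description of spots that share both transcript and array.

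The ferritin light chain could be read only outside the naming rule, through a probe that the files describe as ferritin light polypeptide and that carries no such gene name. This probe, A_72_P050477, read 10.18, 10.46 and 10.53 in ischemia kidneys, against 10.61, 10.82 and 10.46 in control kidneys. The groups overlapped, and the difference was -0.24 ± 0.20 (SE; limma adjusted p = 0.930). A probe described as ferritin heavy chain-like, A_72_P465545, read 8.77, 8.78 and 8.77 in ischemia kidneys and 9.02, 9.14 and 8.69 in control kidneys. Both were chosen by description after the names had been searched, and neither enters the counts above.

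TF encodes transferrin, the plasma carrier of ferric iron. The TF probe matched accession AK233309 from base 1051, and its sequence is shown because it is the only probe that carries the name TF.
A_72_P318598: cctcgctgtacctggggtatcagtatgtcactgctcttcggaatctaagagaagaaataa
It read -0.89, -0.71 and -0.09 in ischemia kidneys, against 0.01, -0.83 and -0.10 in control kidneys. Either group held a low and a high array. The difference was -0.26 ± 0.32 (SE; limma adjusted p = 0.944), and within the 3 slides, each of which carried 1 ischemia and 1 control array, it was -0.72, 0.74 and -0.79. The sign was thus not shared by the slides. The TF difference was -0.52 without control 2, -0.49 without ischemia 3, -0.15 without control 3, -0.098 without control 1, -0.095 without ischemia 1, -0.11 after median centring and -0.031 in the authors' deposited values. A second probe, described in the files as transferrin without the gene name, read 2.43, 2.21 and 2.93 in ischemia kidneys and 2.97, 2.28 and 2.97 in control kidneys. This probe, A_72_P308693, gave within-slide differences of -0.77, 0.65 and -0.54, in the order of signs seen with the named probe.

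TFRC encodes the transferrin receptor, the main entry of transferrin-bound iron into cells. Its 1 probe, A_72_P035411, starts at base 2303 of transcript NM_214001. It read -1.70, -1.53 and -3.01 in ischemia kidneys, against -2.92, -3.19 and -2.64 in control kidneys. Ischemia 1 and 2 lay above every control kidney, and ischemia 3 lay within the control range. The difference was 0.84 ± 0.41 (SE), a 1.78-fold signal with a 95% confidence interval of -0.12 to 1.79 on the log2 scale (limma adjusted p = 0.851). Without ischemia 3 it was 1.30 (limma adjusted p = 0.308), without ischemia 1 it was 0.65 and without ischemia 2 it was 0.56. The TFRC difference was 0.31 after normexp background correction and 0.55 in the authors' deposited values.

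HAMP encodes hepcidin, the hormone that limits iron export. The first of its 2 probes is shown because it was too dim to test.
A_72_P458477: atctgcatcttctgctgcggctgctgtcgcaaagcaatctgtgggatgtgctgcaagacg
It was well above background on 1 ischemia array and on 0 control arrays, with values of -4.49, -5.75 and -4.67 in ischemia kidneys and -6.03, -5.12 and -4.47 in control kidneys. The groups overlapped across almost their whole range. The second HAMP probe, A_72_P302614, read -2.75, -3.38 and -3.23 in ischemia kidneys, against -3.14, -3.21 and -2.63 in control kidneys. Its difference was -0.13 ± 0.26 (SE; limma adjusted p = 0.963). The sign turned under median centring (0.026), under quantile normalization (0.016), without control 3 (0.055) and without ischemia 2 (0.0037).

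CP encodes ceruloplasmin, the copper-carrying ferroxidase of plasma. Its 5 probes lie along transcript ENSSSCT00000012809, with first bases at 769, 996, 3058, 3078 and 3388. The 3 probes of the later stretch gave differences of 1.11 to 1.14, and the earlier probes, A_72_P716088 and A_72_P796449, gave 0.78 and 0.31. The overlapping pair of the later stretch and the 2 earlier probes are shown together because they read different parts of the transcript; capitals mark the longest unbroken run that the pair shares, 21 bases, and shorter shared runs stay in lower case.
A_72_P728543: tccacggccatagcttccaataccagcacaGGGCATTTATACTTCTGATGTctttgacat
A_72_P738892: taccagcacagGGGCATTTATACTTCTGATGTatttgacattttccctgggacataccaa
A_72_P716088: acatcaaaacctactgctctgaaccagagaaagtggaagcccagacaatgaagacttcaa
A_72_P796449: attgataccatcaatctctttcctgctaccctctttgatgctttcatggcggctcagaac
The CP probe with the highest mean signal, A_72_P341938, read 4.30, 4.35 and 2.81 in ischemia kidneys, against 2.85, 2.71 and 2.58 in control kidneys. A_72_P728543 read 3.82, 3.76 and 2.41 in ischemia kidneys and 2.37, 2.35 and 1.86 in control kidneys. On both probes ischemia 1 and 2 stood more than 1 log2 unit above every control, and ischemia 3 stood beside the highest control.

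A_72_P728543 was the only CP probe whose groups did not overlap. Its difference was 1.14 ± 0.40 (SE), a 2.20-fold signal (limma adjusted p = 0.740), with a 95% confidence interval of 0.19 to 2.08 on the log2 scale. A_72_P738892 read 3.90, 3.88 and 2.39 in ischemia kidneys and 2.55, 2.26 and 2.01 in control kidneys, a difference of 1.11 ± 0.43 (SE; limma adjusted p = 0.751). For A_72_P341938 the difference was 1.11 ± 0.42 (SE; limma adjusted p = 0.750). These 3 probes thus gave nearly one value, which did not pass the test over all probes. Of the earlier probes, A_72_P716088 read -1.82, -1.68 and -3.03 in ischemia kidneys, against -3.08, -2.72 and -3.09 in control kidneys. A_72_P796449 read -0.38, 0.37 and -1.10 in ischemia kidneys, against -0.69, -0.66 and -0.70 in control kidneys. On A_72_P796449 the control kidneys were almost equal, ischemia 3 lay below all of them, and without ischemia 2 the difference was -0.055. The difference of A_72_P716088 was 1.21 without ischemia 3, 0.61 without ischemia 1, 0.53 without ischemia 2 and 0.33 after normexp background correction.

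HP encodes haptoglobin, which binds hemoglobin released from red cells. Its 5 probes match transcript NM_214000. A_72_P657000 read -1.65, -2.05 and -2.06 in ischemia kidneys, against -2.47, -2.63 and -2.24 in control kidneys. All ischemia kidneys lay above all control kidneys, and the within-slide differences of 0.41, 0.57 and 0.59 had one sign. The difference was 0.52 ± 0.22 (SE), a 1.44-fold signal (limma adjusted p = 0.778). A_72_P667554 read -2.51, -2.41 and -3.02 in ischemia kidneys, against -3.32, -2.94 and -3.19 in control kidneys. Here ischemia 3 lay within the control range, and the difference was 0.50 ± 0.24 (SE; limma adjusted p = 0.847). After normexp background correction, whose offset narrows the differences of dim probes, A_72_P657000 and A_72_P667554 differed by 0.22 and 0.09.

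The other 3 HP probes were too dim to test. A pair of them reads almost one stretch, shown with the longest shared run, 57 bases, in capitals because the pair shows the scatter of dim spots.
A_72_P178006: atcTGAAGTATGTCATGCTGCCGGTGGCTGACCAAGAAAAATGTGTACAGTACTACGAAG
A_72_P581127: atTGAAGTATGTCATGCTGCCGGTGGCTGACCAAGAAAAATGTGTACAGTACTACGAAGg
A_72_P178006 read -3.71, -2.98 and -4.43 in ischemia kidneys, against -4.22, -4.78 and -4.60 in control kidneys. It was well above background on 2 ischemia arrays and on 0 control arrays. The groups overlapped, with ischemia 3 below control 1, and no fold is given. A_72_P581127 read -3.62, -4.13 and -4.09 in ischemia kidneys, against -4.41, -4.77 and -4.10 in control kidneys. It was well above background on 1 array of each group. Despite the shared bases, ischemia 2 was the highest ischemia kidney on A_72_P178006 and the lowest on A_72_P581127. A_72_P568194 was not well above background on any of the 6 arrays.

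HPX encodes hemopexin, which binds free heme and carries it to cells. The single HPX probe, which starts at base 1282 of transcript NM_213953, had the widest difference among the 21 member probes tested.
A_72_P302769: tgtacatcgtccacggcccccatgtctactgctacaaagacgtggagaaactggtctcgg
It read 4.21, 4.66 and 2.33 in ischemia kidneys, against 2.55, 2.36 and 1.61 in control kidneys. Ischemia 1 and 2 lay far above every control kidney, and ischemia 3 lay within the control range. The HPX signal averaged 3.73 ± 1.24 in ischemia kidneys and 2.17 ± 0.50 in control kidneys (SD, n = 3 each). The difference was 1.56 ± 0.60 (SE), a 2.95-fold signal with a 95% confidence interval of 0.15 to 2.97 on the log2 scale (limma adjusted p = 0.751). Without ischemia 3 the difference was 2.26 (limma adjusted p = 0.265), and without ischemia 2 it was 1.1.

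**Figure D2:**
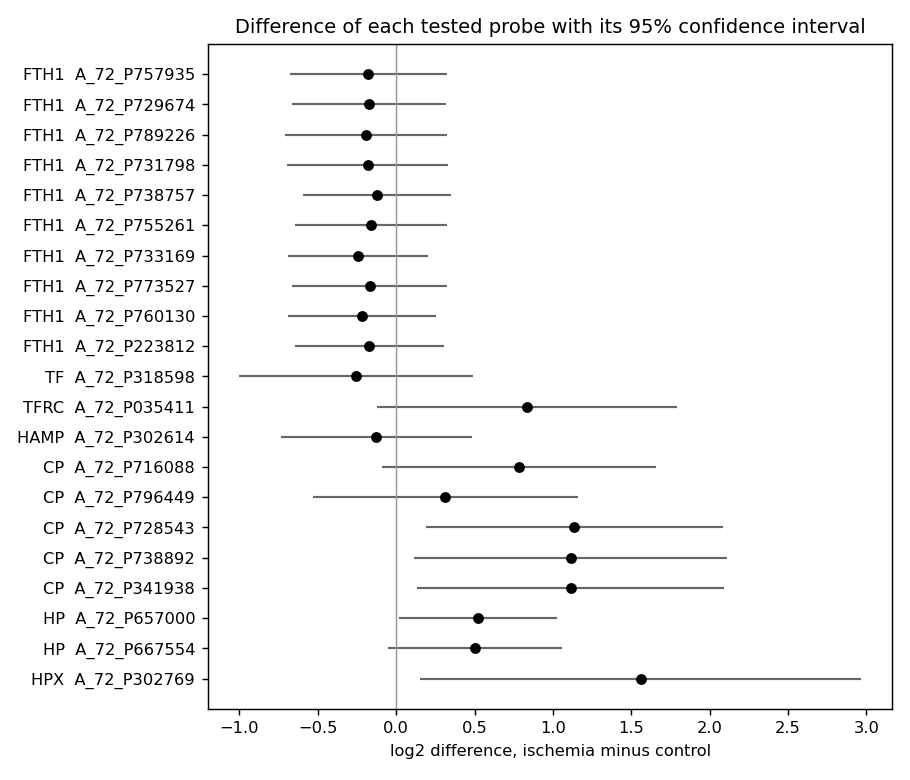
Log2 difference of each of the 21 tested probes, ischemia minus control, with its 95% confidence interval from limma, grouped by gene. The FTH1 probes lie between -0.24 and -0.12, a sign that turns under quantile normalization, and the 3 later CP probes, 1 HP probe and HPX have unadjusted intervals above 0; no probe passed the adjusted test.

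Slides separated the kidneys in a way that bears on CP, HPX and TFRC. Slide 1 carried ischemia 2 and control 1, slide 2 carried ischemia 3 and control 2, and slide 3 carried ischemia 1 and control 3. HPX differed by 2.11 on slide 1, -0.03 on slide 2 and 2.60 on slide 3. The 5 CP probes differed by 1.06 to 1.51 on slide 1, by -0.44 to 0.12 on slide 2 and by 0.32 to 1.96 on slide 3. TFRC differed by 1.40, 0.17 and 0.94. The slide 2 differences were thus close to 0 or below it in CP and HPX, and slide 2 is also the slide of ischemia 3, so that slide and kidney cannot be told apart there. With slide as a block, HPX had an unadjusted limma p of 0.0205 (adjusted p = 0.437), TFRC one of 0.0243 (adjusted p = 0.455), and the CP probe A_72_P341938 one of 0.0184 (adjusted p = 0.426). Position on the slide was 3 for every ischemia array and 4 for every control array, and thus cannot be told apart from the group.

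**Figure D3:**
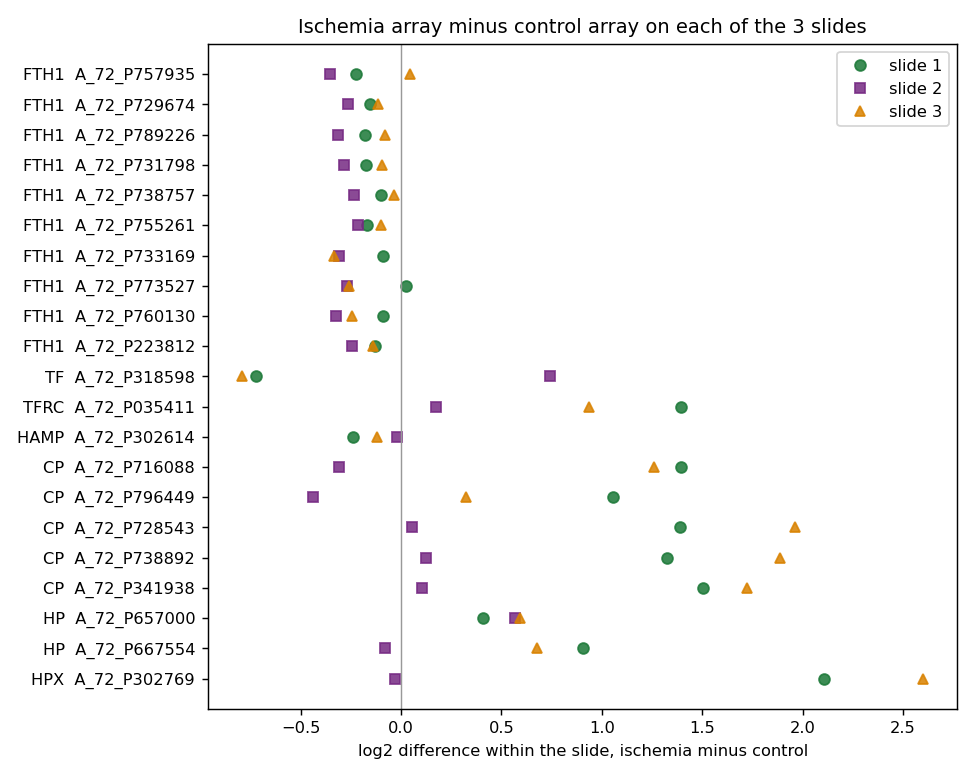
Log2 difference between the ischemia and the control array of the same slide for each tested probe, with slide 1 as green circles, slide 2 as purple squares and slide 3 as orange triangles. HPX, CP and TFRC lie farther right on slides 1 and 3 than on slide 2, HP probe A_72_P657000 lies near 0.5 on all 3 slides, and TF changes sign between slides.

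Across the 6 arrays CP and HPX varied together, with Pearson correlations of 0.825 to 0.987 over the 5 probe pairs. TFRC correlated with HPX at 0.880 and with the CP probes at 0.833 to 0.945. These are descriptions over arrays that share slides and the same contrast between kidneys. By the same measure, the named genes closest to the TFRC probe were S100A12 (0.997), CYCS (0.991), SQLE (0.991), CSRP2 (0.987) and UBE2Q1 (0.981). Closest to the FTH1 probe A_72_P755261 were EGF (0.984), BMP4 (0.980), PARK7 (0.978), RPS3A (0.978) and BLNK (0.977).

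Markers of liver cells, the main source of CP, HP and HPX in the body, were read beside these genes. Of 10 listed markers 7 had a probe and 5 were tested, of which 0 passed. At an unadjusted limma p under 0.05, 1 was higher, against 2.99% of all probes tested, and 1 was lower, against 3.3%. Of the 5 differences 2 were above 0 (FGG and TTR) and 3 below, with a median of -0.24. A summed level here is the log2 of the markers' signals added on the linear scale, so the brightest marker weighs most. For all 7 markers with a probe it was 4.59 to 6.44 in ischemia kidneys, highest in ischemia 3, against 3.14 to 4.22 in control kidneys. FGG, the fibrinogen gamma chain, read 5.35, 3.61 and 0.23 in ischemia kidneys and 1.41, 0.67 and -0.13 in control kidneys. Ischemia 1 and 2 were again the high arrays in FGG. TTR, the thyroid hormone carrier transthyretin, read 3.49, 3.03 and 6.27 in ischemia kidneys and 1.46, 2.03 and 1.59 in control kidneys, with every ischemia kidney above every control kidney and ischemia 3 the highest. ALB, the albumin gene that defines hepatocytes, read -4.54, -4.79 and -6.04 in ischemia kidneys and -3.43, -4.54 and -4.11 in control kidneys on the brightest of its 20 probes, and APOB and SERPINA1 were too dim to test. That ALB probe was well above background on 1 ischemia and 2 control arrays. APOA1, an apolipoprotein, differed by -0.79 ± 0.52 and AHSG, the plasma protein fetuin-A, by -0.24 ± 0.41 (SE), and ALB, the 1 marker lower at an unadjusted p under 0.05, by -1.10 ± 0.46.

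Other cell markers and array quality were compared in the same way. Proximal tubule markers, found for 7 of 8 genes, had a summed level of 7.97 to 8.22 in ischemia kidneys, against 8.55 to 9.10 in control kidneys. All 7 had differences below 0. At an unadjusted limma p under 0.05, 5 of the 7 were lower, against 3.3% of all probes tested, and 0 passed after adjustment. Macrophage markers (2 of 4 on the array) summed to 1.50 to 2.63 in ischemia kidneys, against 1.07 to 1.32 in control kidneys. Only 1 of these 2 had a difference above 0, namely CD163, which is also counted among the iron genes below. Leukocyte markers summed to -1.48 to -0.95 in ischemia kidneys and -1.72 to -0.73 in control kidneys. Of the 2 leukocyte markers tested, 0 had a difference above 0. S100A8, a leukocyte marker too dim to test, read -2.96, -2.90 and -6.27 in ischemia kidneys and -6.04, -6.19 and -4.66 in control kidneys. Red cell markers summed to 1.36 to 5.19 in ischemia kidneys, highest in ischemia 2, and to 1.64 to 3.54 in control kidneys. Of the cortical defining genes, NPHS1 and UMOD were not read under those names, PODXL was the only podocyte marker, and SLC12A1 of the thick ascending limb was well above background on all arrays. Between 52.6% and 61.4% of spots per array were well above background, a share that followed the slide. The part of these markers, of slide and of array quality in the CP, HP, HPX and TFRC values was not tested.

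Other genes of iron and heme handling, 61 in a list by role, had a probe for 34 and entered the test for 26, each by its brightest probe. In limma 0 of 26 passed the adjusted threshold, beside 0.004% of all probes tested. At an unadjusted limma p under 0.05, 2 were higher, against 2.99% of all probes, and 0 were lower, against 3.3%. Of the 26 differences 13 were above 0, with a median of -0.003, against -0.04 over all probes tested. In 5 of the 26 all ischemia kidneys lay above all control kidneys, against 5.93% of all probes, and in 0 below. These 5 were CD163, BMP2, SLC25A37, SMAD4 and FBXL5, the last 2 named after their values were seen.

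Among genes of heme and globin clearance (8 listed, 3 tested), CD163 encodes the macrophage receptor for haptoglobin bound to hemoglobin. It read 2.40, 1.76 and 1.18 in ischemia kidneys, against 0.27, 0.36 and 0.46 in control kidneys. The control kidneys were close together and every ischemia kidney lay above them; the difference was 1.42 ± 0.32 (SE; limma adjusted p = 0.495). All 4 CD163 probes had differences above 0, from 0.79 to 1.58. HMOX1, the inducible heme oxygenase that breaks heme down, read 4.74, 5.19 and 4.35 in ischemia kidneys and 5.47, 5.51 and 4.98 in control kidneys. The groups overlapped in HMOX1, with a difference of -0.56 ± 0.28 (SE; limma adjusted p = 0.852), and its other 2 probes gave -0.58 and -0.69.

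Of genes that control hepcidin (15 listed, 7 tested), BMP2, a ligand that induces hepcidin in mouse liver, read -3.10, -2.35 and -2.22 in ischemia kidneys, against -3.47, -3.36 and -3.31 in control kidneys. Its difference was 0.82 ± 0.27 (SE; limma adjusted p = 0.692), and ischemia 1 lay closest to the control kidneys. HFE, which takes part in sensing transferrin saturation, differed by -0.42 ± 0.30 (SE). In iron sensing (6 listed, 4 tested), NCOA4, the receptor that delivers ferritin to lysosomes, differed by -0.31 ± 0.22, and IREB2, iron regulatory protein 2, by 0.17 ± 0.22. In mitochondrial iron and heme synthesis (18 listed, 5 tested), SLC25A37, the iron importer mitoferrin, read 1.21, 1.19 and 1.37 in ischemia kidneys and 1.02, 0.93 and 0.63 in control kidneys, a difference of 0.40 ± 0.20 (SE; limma adjusted p = 0.852). None of HFE, NCOA4, IREB2 and SLC25A37 had an unadjusted p under 0.05 by its brightest probe.

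The scavengers LTF (lactoferrin) and LCN2 (lipocalin that binds iron-loaded siderophores, also called NGAL) differed by -0.04 ± 0.37 and 0.03 ± 0.52 (SE). LCN2 read -2.54, -2.05 and -2.51 in ischemia kidneys, against -1.41, -2.22 and -3.58 in control kidneys, so that the control kidneys spanned more than the ischemia kidneys. In uptake and export (12 listed, 5 tested), SLC11A2, the ferrous iron transporter DMT1, differed by 0.55 ± 0.30, and CUBN, the tubular receptor cubilin, which takes up filtered transferrin, by -0.38 ± 0.24 (SE). CUBN is also counted among the proximal tubule markers above. The brightest probes of CYBRD1 and SLC39A14, which stand for these genes in the counts, match each other at 21 of 28 overlapping bases. That was the best of the placements tried without gaps, and what these probes read is uncertain. The groups overlapped in SLC11A2 and in CUBN, and the limma adjusted p was 0.880 and 0.899.

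**Figure D4:**
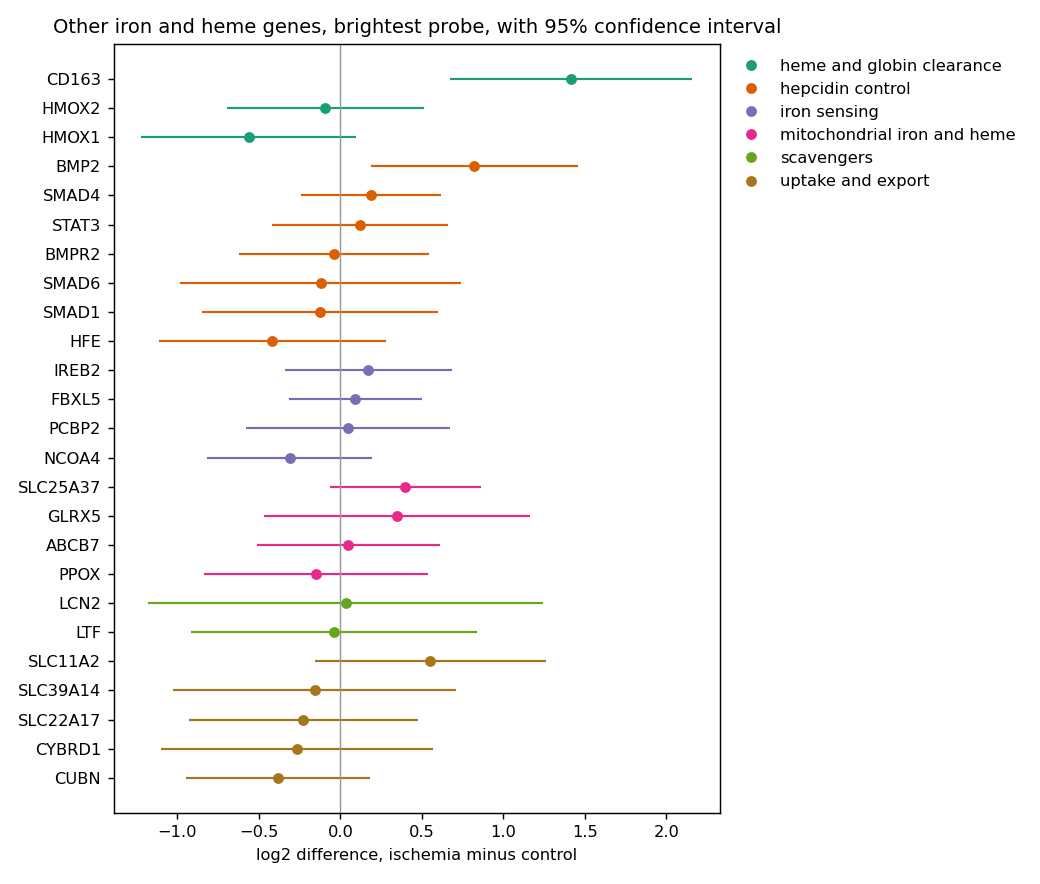
Log2 difference, ischemia minus control, with its 95% confidence interval for the brightest probe of 25 of the 26 other iron and heme genes tested, coloured by role. CD163 at 1.42 and BMP2 at 0.82 have unadjusted intervals above 0, and none of the genes shown passed the adjusted test.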

How the data were processed

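Deposited scanner output gives the intensity of each spot, background-subtracted and detrended within the array by Agilent Feature Extraction 10.10.1.1 per the file headers; per the submitters' processing notes version 11.5.1.1, R 2.15.2 and limma were used. A second deposited table holds log2 values of the authors, with between-array normalization not given in the sources used here. It holds 1 row per gene name, so it served as an alternative for the single-probe genes only. Here log2 of the processed signal minus each array's 75th percentile was taken, without control and outlier spots. Probes were tested if well above background on at least 3 of 6 arrays with values on at least 5. The ischemia and control groups were fitted in limma 3.58.1 (R 4.3.3), two-sided, with Benjamini-Hochberg adjustment over 25017 probes. An error after ± is a standard error for a difference and an SD for a group mean. With 3 kidneys per group, an exact permutation test cannot give a two-sided p below 0.1, so none was used.

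Every member probe is named. Of the other iron genes, the 2 of smallest p per role are named, except 1 gene not reported here, and for FTH1 and TFRC the 5 genes of highest correlation. Members and gene lists were chosen with earlier results of these data known. List genes were also found by description (30 probes) and accession (8). Probe positions are those in the transcripts named by the files. No genome was used. The labels say the kidneys came from different pigs. Array pairs correlated at 0.960 to 0.983, so no array was a copy of another. Whether 2 arrays came from 1 kidney cannot be read from these correlations. The fit was also run on simulated data with known changes. Noise there was independent between arrays, so shared slides were not modelled and the run checks only the code. Alternatives were median centring, quantile normalization, normexp (offset 50), the deposited table, other dim-probe filters, outlier spots retained, a block for slide or for sample number, and each array left out.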

Additional observations from a re-analysis of the deposited data

How the results depend on the processing

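No member probe and none of the other iron genes passed the adjusted threshold in limma under any alternative run. Over all alternatives the smallest adjusted p was 0.265 (HPX and 3 CP probes, without ischemia 3). HPX kept its sign in all of them, at 1.1 to 2.26. The count of member probes at an unadjusted p under 0.05, 5 as reported, was 8 under quantile normalization and 0 to 9 with 1 array left out: 0 without ischemia 1 or ischemia 2, 1 without control 2 or control 3, and 9 without ischemia 3. For the other iron genes, 2 as reported, the count was 2 to 4 with 1 array left out, reaching 4 without control 3 or ischemia 3, and 3 under quantile normalization or without control 1. Over the whole array, 1 probe passed as reported, 11 after median centring, 3 after normexp, 4 in the deposited table, 3 when all 6 arrays had to be well above background, 0 with quantile normalization, no filter or slide as a block, and 0 to 1 with 1 array left out, 0 without control 1, control 2 or ischemia 2. Unadjusted calls, 748 higher and 826 lower, were 3764 and 410 in the deposited table and 365 to 1040 higher and 434 to 2191 lower with 1 array left out, the extremes coming without control 2 and ischemia 3 for higher, and without control 2 and control 1 for lower. Lower calls were 491 after median centring, 1282 without the filter and 1407 with slide as a block. The median difference over all probes was 0.11 after median centring, against -0.04 as reported.

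Under quantile normalization the FTH1 probes A_72_P757935, A_72_P729674, A_72_P789226, A_72_P731798, A_72_P738757, A_72_P755261, A_72_P733169, A_72_P773527, A_72_P760130 and A_72_P223812 had differences of 0.0093, 0.058, 0.063, 0.062, 0.112, 0.086, 0.0028, 0.090, 0.027 and 0.018, and A_72_P738757 had 0.029 after median centring. The HAMP probe A_72_P302614 had 0.026 after median centring, 0.016 under quantile normalization and -0.31 to 0.055 with 1 array left out, above 0 without control 3 (0.055) and without ischemia 2 (0.0037). The CP probe A_72_P796449 had -0.055 to 0.68 with 1 array left out, below 0 without ischemia 2. The cause of these turns was not tested.

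Deviations from the group means correlated at -0.35, -0.17 and -0.05 between samples with the same number. Between arrays on the same slide they correlated at 0.34, 0.10 and 0.33. The 3 deviations of a group sum to 0, so these correlations are tied together and cannot decide whether sample numbers pair the kidneys. With sample number as a replicate block 0 probes passed over the array, and 4 member probes had an unadjusted p under 0.05. The number of arrays, 3 per group, limits the precision of every value, and 4 member probes were too dim to compare.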

Other observations

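Of the other iron genes, CYBRD1, a ferric reductase, and SLC39A14, a metal transporter, were read by several probes that did not follow one pattern. The brightest CYBRD1 probe, A_72_P716343, read 5.82, 5.0 and 4.91 in ischemia kidneys, against 5.07, 5.36 and 6.09 in control kidneys. CYBRD1 probe A_72_P125706 read 1.73, 1.93 and 1.72 in ischemia kidneys, against 1.65, 1.49 and 1.05 in control kidneys. Ischemia 1 and control 3 were the high arrays on A_72_P716343, whereas on A_72_P125706 all ischemia kidneys lay above all control kidneys. The differences of these CYBRD1 probes were -0.27 ± 0.36 and 0.40 ± 0.22 (SE), so the sign of CYBRD1 depends on the probe. Across the 6 arrays A_72_P716343 correlated at -0.73 with A_72_P125706 and at 0.965 with A_72_P370828, the brightest SLC39A14 probe, which read 6.20, 5.46 and 5.49 in ischemia kidneys and 5.27, 5.82 and 6.54 in control kidneys. A_72_P370828 correlated at 0.23 with the other SLC39A14 probe, A_72_P709626. Of the remaining CYBRD1 probes, A_72_P022906 correlated at 0.956 with A_72_P125706. A_72_P029936 correlated at 0.879 with A_72_P716343 and at 0.968 with A_72_P370828. The last 28 bases of A_72_P716343 and the first 28 of A_72_P370828 match at 21 positions, the best of the placements tried without gaps. Whether these probes hold a repeat and read other transcripts as well was not tested, so their values may not be those of CYBRD1 and SLC39A14 alone. They were looked at after their values were seen.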
